A study of Mus musculus with 24 samples.

Results

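The 36 genes described here encode the enzymes of glycolysis with their isozymes and the carriers of glucose, lactate and pyruvate. They also encode the regulators PFKFB and PDK, and subunits of the enzyme that passes pyruvate on to the citric acid cycle. The chain from glucose to pyruvate is held by Hk1, Hk2, Hk3, Gpi1, Pfkl, Pfkm, Pfkp, Aldoa, Aldoc, Tpi1, Gapdh, Pgk1, Pgam1, Eno1, Eno3 and Pkm. Ldha and Ldhb interconvert pyruvate and lactate, Slc2a1 and Slc2a3 carry glucose, and Slc16a1 and Slc16a3 carry lactate. Pfkfb1 to Pfkfb4 set the level of the phosphofructokinase activator, Pdk1 to Pdk4 restrain pyruvate dehydrogenase, Pdha1 and Pdhb are subunits of that enzyme and Mpc1 and Mpc2 of the pyruvate carrier. Bpgm and G6pdx lead into side branches. The genes are 36 of the 55376 gene symbols counted in each of 24 bulk mRNA-seq libraries. The list is a set of textbook pathway genes, and the measured values that went into its choice are those of Hk3, since the list was selected on the difference of Hk3 between TTPΔARE and WT HSCs at both ages. The Hk3 values of the HSC libraries are therefore given as a description, with no test, in every comparison that HSCs enter.

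The libraries were made from bone marrow cells of male mice, either homozygous TTPΔARE animals or their WT littermates. TTPΔARE removes an AU-rich element from the 3′ untranslated region of Zfp36, the gene of the mRNA decay factor TTP, in every cell of the animal, so that no result is limited to the sorted cells. HSCs were sorted as CD150+ cells of the LSK CD34- Flk2- gate from young mice (Y-WT, n = 4, and Y-TTPΔARE, n = 4, a few months old) and from middle-aged mice of about a year (M-WT, n = 5, and M-TTPΔARE, n = 3). MPP3 cells, myeloid-biased multipotent progenitors, came from young mice alone (Y-WT, n = 4, and Y-TTPΔARE, n = 4). No treatment was given, and the labels do not say whether 1 library holds cells of 1 animal, so p-values measure the spread between these libraries.

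In glycolysis a hexokinase first phosphorylates glucose, phosphofructokinase commits the sugar to breakdown, and a chain of further enzymes yields pyruvate. Lactate dehydrogenase turns pyruvate into lactate, while the carrier MPC and the pyruvate dehydrogenase complex bring it into the citric acid cycle, a step that the PDK kinases restrain. HSCs are known for relying on glycolysis in the low-oxygen marrow, with PDK as a brake on pyruvate dehydrogenase. Progenitors that divide more are known to use mitochondria more.

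The targeted gene matched the labels. Zfp36 was at 29.8 to 74.4 CPM (counts scaled to a common library size with TMM factors over all libraries) in Y-WT HSCs against 83.4 to 115 in Y-TTPΔARE HSCs. It was at 44.9 to 65.8 in M-WT against 89.6 to 115 in M-TTPΔARE HSCs, and at 20.7 to 35.8 against 74.5 to 117 in MPP3 cells, so that the genotypes did not overlap in any of the 3 pairs. The summed level of 13 HSC markers was 2389 to 4573 CPM in the HSC libraries and 1164 to 1782 in the MPP3 libraries, and that of 12 myeloid progenitor markers was 969 to 1481 against 3323 to 6225. Total counts were 24261371 to 39934554 per library.

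Some libraries stand apart, and their values are given before the results. In the Y-WT HSC libraries 2, 3 and 4, between 40051 and 41676 genes had a count, against 27729 in library 1, and the 1736 olfactory and vomeronasal receptor genes, which marrow cells are not known to use, summed to 537 to 868 CPM against 62.2. The 36 genes summed to 5097 to 6067 CPM in those libraries and to 7875 in library 1, and the part of the receptor reads in the results was not tested. In the Y-TTPΔARE MPP3 library 4 they summed to 9803 CPM against 7324 to 8857 in the others. Every age is a separate set of libraries, as is every cell type by its numbering in the labels, so that age or cell type and set of libraries cannot be told apart.

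**Figure D1:**
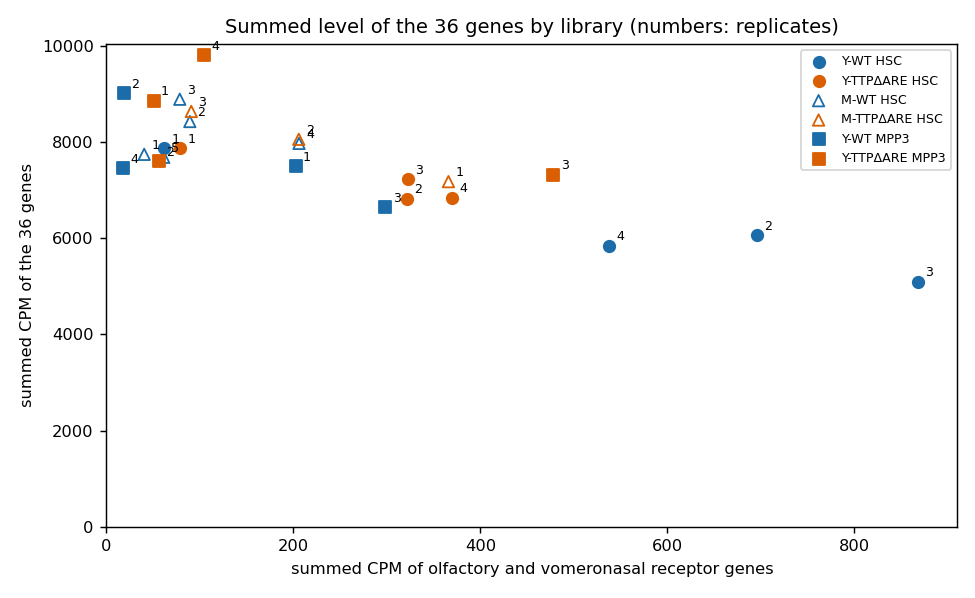
Summed CPM of the 36 genes (y axis) against the summed CPM of the receptor genes (x axis) in each of the 24 libraries, with replicate numbers beside the points. The 3 Y-WT HSC libraries at 537 CPM of receptor genes or more are the 3 lowest of all in the sum of the 36 genes.

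The sequences shown here are those that bear on Hk3 and on the AU-rich elements that TTP binds. Hk3 lies at chr13:55005985-55021385 on the minus strand of GRCm38 (GENCODE M21), with 34 exonic bases shared with Unc5a on the other strand. Its RefSeq promoter, chr13:55021336-55021635 on the minus strand (GRCm38.p6, from upstream of the start to just inside the gene), is printed because Hk3 is the member that the results turn on. Capitals mark GAGGAA, a core of sites of the myeloid factor PU.1, and the hypoxia element cores ACGTG and GCGTG, each on either strand. The second sequence is a promoter of Ldha, chr7:46845554-46845853 on the plus strand, shown as the member promoter with the most ACGTG cores.

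Hk3 promoter: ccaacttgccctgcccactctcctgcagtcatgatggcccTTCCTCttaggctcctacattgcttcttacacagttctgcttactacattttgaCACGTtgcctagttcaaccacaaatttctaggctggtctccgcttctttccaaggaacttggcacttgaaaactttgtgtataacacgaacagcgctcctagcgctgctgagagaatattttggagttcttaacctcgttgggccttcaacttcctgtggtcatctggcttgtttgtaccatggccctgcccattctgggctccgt
Ldha promoter: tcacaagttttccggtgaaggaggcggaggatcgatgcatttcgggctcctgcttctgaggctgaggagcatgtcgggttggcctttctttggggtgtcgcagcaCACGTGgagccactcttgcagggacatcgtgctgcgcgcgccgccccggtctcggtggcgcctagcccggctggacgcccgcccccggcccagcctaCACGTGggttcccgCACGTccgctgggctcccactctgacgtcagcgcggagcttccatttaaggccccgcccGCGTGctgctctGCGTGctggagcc

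The Hk3 promoter held GAGGAA in 1 place and ACGTG in 1, both on the reverse strand. GAGGAA was in 28.3% of the 32851 promoters of the table and in 29.1% of the 55 promoters of the 35 members that had one. ACGTG or GCGTG was in 76.4% of those 55 promoters and in 43.8% of all promoters, and 32 of the 35 members had at least 1 such promoter. No promoter was found for Slc2a3. CACGTG contains ACGTG and was in 10.9% of the member promoters and 7.15% of all. These matches are letters in a window and say nothing of binding.

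TTP binds UAUUUAU and similar AU-rich runs. In the longest annotated 3′ untranslated region of each gene (GENCODE M21), TATTTAT occurred in 11 of the 36 members, or 30.6%, against 30.4% of the 11818 genes that had such a region and a mean level over the limit in young HSCs. Hk3 had none in its 186 bases and 2 overlapping ATTTA runs at its end. Hk2, Pfkp, Slc2a3 and Pfkfb3 had 2 TATTTAT matches each. Those of Hk2 and Pfkp are shown because their levels in MPP3 cells are described below, with the motif in capitals. The sites of Slc2a3 and Pfkfb3, whose levels are described below too, are not shown. The coordinates are GRCm38, minus strand, chr6:82726563-82726591 and chr6:82725901-82725929 for Hk2, chr13:6581371-6581399 and chr13:6580370-6580398 for Pfkp, and chr13:55005985-55006011 for Hk3.

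Hk2 site 1: tgtaagtaatgTATTTATatgttcctttg
Hk2 site 2: tttatacgagtTATTTATtccagactgtt
Pfkp site 1: tgtaacatagtTATTTATcagcactttat
Pfkp site 2: tccactccttgTATTTATtctaaacgatc
Hk3 site: tatatatatataATTTAtttacattca

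Of the 3 hexokinases, Hk3, the form known from myeloid cells and white blood cells, was higher in TTPΔARE HSCs than in WT HSCs at both ages, which is how it was chosen. It stood at 34.8, 28.4, 33.6 and 36.4 CPM in Y-WT HSCs and at 59.6, 58.9, 60.5 and 61.8 in Y-TTPΔARE HSCs, a log2 fold change of 0.75 ± 0.08 (SE, n = 4 and 4). In middle-aged HSCs it was at 65.8, 64.9, 59.5, 62.6 and 67.3 CPM in M-WT and at 89.9, 97.3 and 102 in M-TTPΔARE, a log2 fold change of 0.62 ± 0.06. The genotypes did not overlap at either age, and the Y-TTPΔARE libraries overlapped with the M-WT libraries. Myeloid progenitor markers summed to 1011 to 1263 CPM in Y-WT and 1119 to 1330 in Y-TTPΔARE HSCs, and to 1279 to 1481 in M-WT and 969 to 1188 in M-TTPΔARE HSCs. Monocyte and macrophage markers summed to 427 to 581 CPM in Y-WT, 525 to 578 in Y-TTPΔARE, 467 to 522 in M-WT and 429 to 494 in M-TTPΔARE HSCs. Mature neutrophil markers summed to 7.10 to 169 CPM in Y-WT, 10.3 to 14.7 in Y-TTPΔARE, 6.51 to 15.3 in M-WT and 3.87 to 5.04 in M-TTPΔARE HSCs. Other marker sums separated the genotypes as well. T and NK cell markers summed to 77.8 to 105 CPM in Y-WT and 121 to 252 in Y-TTPΔARE HSCs. At middle age erythroid markers summed to 1222 to 1728 CPM in M-WT and 1733 to 2251 in M-TTPΔARE HSCs, and megakaryocyte and platelet markers to 200.8 to 229 and 136 to 162. The part of these cells in the result was not tested. The log2 fold change of Hk3 was 0.71 in young and 0.65 in middle-aged HSCs when library totals replaced the TMM factors.

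MPP3 cells were not used to choose Hk3, and there it was the highest of all groups. It stood at 96.1, 127, 155 and 105 CPM in Y-WT MPP3 cells and at 209, 155, 173 and 158 in Y-TTPΔARE MPP3 cells. The highest WT and the lowest TTPΔARE library were level, and the log2 fold change of 0.51 ± 0.18 did not pass (edgeR quasi-likelihood test, adjusted p = 0.27). It was 0.57 without the Y-TTPΔARE library 4 (adjusted p = 0.20). Ordered by level, Hk3 ran from Y-WT HSCs over Y-TTPΔARE and M-WT HSCs to M-TTPΔARE HSCs and then MPP3 cells, and M-TTPΔARE HSCs overlapped with Y-WT MPP3 cells.

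The other hexokinases are Hk1, the widespread form, and Hk2, a form responsive to insulin and hypoxia. Their values and those of Pfkp are given although chosen after the values were seen. Hk1 was at 321, 271, 285 and 293 CPM in Y-WT HSCs and at 389, 299, 331 and 318 in Y-TTPΔARE HSCs, with overlapping groups. In MPP3 cells it was at 308, 373, 358 and 388 CPM in WT and at 309.6, 309, 273 and 157 in TTPΔARE, where library 4 stood lowest. Hk1 passed in none of the 3 genotype comparisons (adjusted p = 0.73, 0.85 and 0.48 in young HSCs, middle-aged HSCs and MPP3 cells, edgeR).

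Hk2 was at 28.0, 24.4, 24.2 and 21.4 CPM in Y-WT HSCs and at 43.4, 43.9, 32.6 and 27.3 in Y-TTPΔARE HSCs, where the lowest TTPΔARE library was under the highest WT library. In middle-aged HSCs it was at 61.6, 60.7, 59.3, 51.4 and 43.3 CPM in M-WT and at 67.1, 61.0 and 46.2 in M-TTPΔARE. It was at 33.4, 30.1, 26.1 and 27.5 CPM in Y-WT MPP3 cells and at 53.1, 58.8, 35.8 and 39.3 in Y-TTPΔARE MPP3 cells. The MPP3 groups did not overlap, the others did, and no comparison of genotypes passed with all libraries (edgeR adjusted p = 0.36, 0.75 and 0.10).

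**Figure D2:**
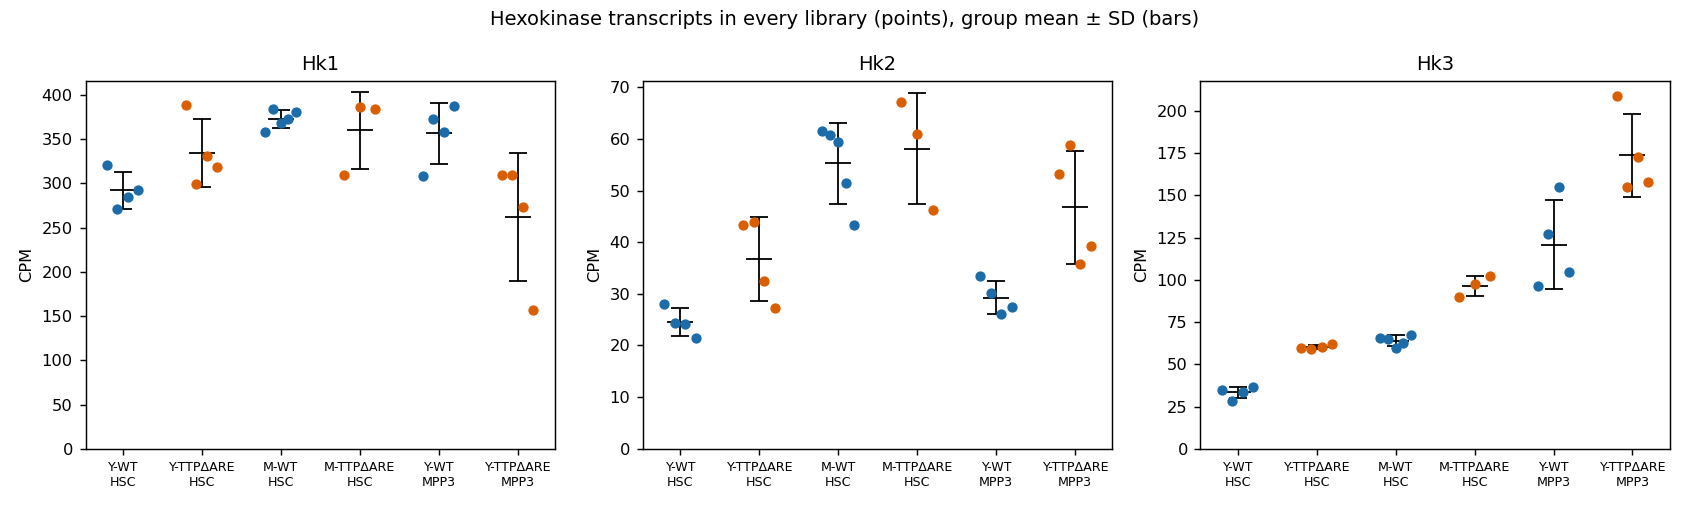
CPM of Hk1, Hk2 and Hk3 (y axes, from 0) in each library of the 6 groups (points), with the group mean and SD. Hk3 is lowest in Y-WT HSCs at 28.4 to 36.4 CPM and highest in Y-TTPΔARE MPP3 cells at 155 to 209, and Hk1 has its lowest library, at 157 CPM, in Y-TTPΔARE MPP3 cells.

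Levels of different genes can be compared only per length. The length used is that of all annotated exons of a gene joined, 8.53 kb for Hk1 and 3.68 kb for Hk3. A single transcript can be shorter, so the shares depend on this divisor. On CPM per kilobase of exon Hk1 was the most abundant hexokinase in every HSC group. Hk1 held 72.3% ± 0.612 of the hexokinase sum in Y-WT HSCs (SD, n = 4) and 63.4% ± 2.49 in Y-TTPΔARE HSCs. Hk3 held 19.1% ± 1.34 and 26.6% ± 2.23 of it there, and 24.7% ± 1.08 and 33.5% ± 1.14 in M-WT and M-TTPΔARE HSCs. In MPP3 cells its share was 41.0% ± 4.93 in Y-WT and 55.5% ± 6.30 in Y-TTPΔARE, where Hk3 led the family on this measure. In CPM without the divisor Hk1 was higher in Y-TTPΔARE MPP3 cells, at a mean of 262 against 174 for Hk3. The SDs cover the libraries of each group, and the Hk3 shares in HSCs rest on the values that chose it.

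**Figure D3:**
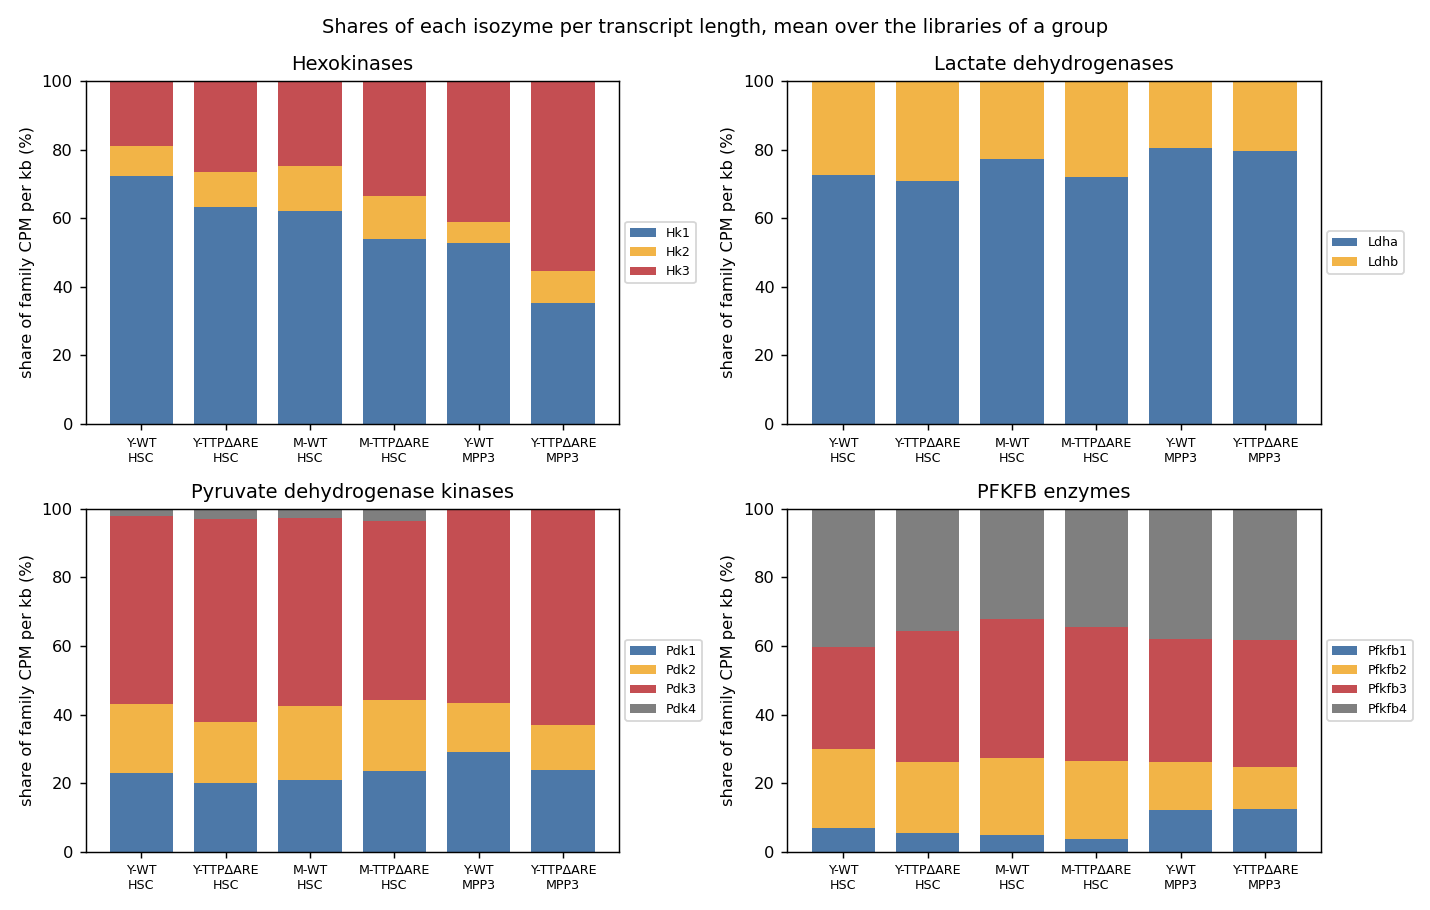
Share of each isozyme in the summed CPM per kilobase of its family (y axis, percent), as the mean over the libraries of each group. Hk3 takes 19.1% of the hexokinases in Y-WT HSCs and 55.5% in Y-TTPΔARE MPP3 cells, and Ldha takes 72.5% of the lactate dehydrogenases in Y-WT HSCs and 80.5% in Y-WT MPP3 cells.

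Among the remaining families, the pyruvate dehydrogenase kinases were led by Pdk3 on CPM per kilobase. It held 54.7% in Y-WT HSCs and 56.4% in Y-WT MPP3 cells. In CPM without the divisor Pdk1 was above Pdk3, at means of 142 and 112 in Y-WT HSCs and 194 and 125 in Y-WT MPP3 cells. Ldha, which favours lactate formation, held 72.5% of the lactate dehydrogenases in Y-WT HSCs and 80.5% in Y-WT MPP3 cells, with Ldhb as the rest. Aldoa held a mean of at least 90.8% of the aldolases and Eno1 of at least 94.1% of the enolases in every group. Slc16a1, a carrier of lactate and pyruvate, held 92.4% to 94.7% against Slc16a3. Ldha was the highest of the 36 genes in Y-WT HSCs at 268 CPM per kilobase, and Pfkfb1 the lowest at 0.76.

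The comparison of TTPΔARE with WT asks what raised TTP changes in each cell. Calls required an adjusted p (Benjamini-Hochberg, over every tested gene) under 0.05 together with a fold over 1.2 and a mean level over 1.5 on the log2 CPM scale. Hk3 was chosen on its HSC values and is left out of the calls at both ages. No other member was called in young HSCs, where 0.0435% of the 13786 tested genes were called (edgeR). None was called in middle-aged HSCs either, where 2.22% of 13413 were (edgeR). None of 35 members was called in MPP3 cells, where 2.54% of 12856 genes were (edgeR). There, 5 members had an unadjusted p under 0.05, namely Hk2, Hk3, Pfkp and Aldoa higher and Pdk1 lower, a limit that 15.2% of all genes met. DESeq2 called 2, Hk2 and Pfkp, and 5.96% of all genes.

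In young HSCs 6 members other than Hk3 had an unadjusted p under 0.05, with Hk2, Pfkm, Aldoa, Slc2a3 and Pfkfb3 higher and Aldoc lower, and in middle-aged HSCs 8 members did, 5 higher and 3 lower. Over all genes 10.3% and 19.7% met that limit. DESeq2 called Slc2a3, Pfkfb3 and Aldoc in young HSCs, with 2.21% of all genes, and Pdk1, Pfkfb4, Aldoc and Pgam1 in middle-aged HSCs, with 6.23%. Aldoc, the brain-type aldolase, was at 55.2, 41.6, 41.5 and 38.5 CPM in Y-WT and 36.5, 31.7, 36.3 and 31.5 in Y-TTPΔARE HSCs. It was at 41.5, 37.1, 44.3, 39.2 and 44.5 in M-WT and 32.1, 28.6 and 30.0 in M-TTPΔARE HSCs. Its log2 fold changes were -0.48 ± 0.09 (adjusted p = 0.18) and -0.42 ± 0.10 (adjusted p = 0.057, edgeR).

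Slc2a3, a glucose carrier with high affinity, was at 209.8, 164, 168 and 169.8 CPM in Y-WT HSCs and at 304, 296, 249 and 235 in Y-TTPΔARE HSCs, without overlap (log2 fold change 0.51 ± 0.09, adjusted p = 0.13, edgeR). Pfkfb3, which makes the activator of phosphofructokinase, was at 28.7, 22.5, 24.2 and 24.3 CPM against 55.4, 39.3, 31.6 and 35.2 (0.59 ± 0.14, adjusted p = 0.26, edgeR). In middle-aged HSCs both genes overlapped between the genotypes, at 0.09 ± 0.06 and 0.15 ± 0.10. Both were named after their values were seen.

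Every TTPΔARE library was above every WT library for 3 members in young HSCs, where 3.96% of all tested genes were. The 3 were Slc2a3, Pfkfb3 and Hk3, which was chosen on these values. Every TTPΔARE library was below every WT library for Aldoc alone, where 1.23% of genes were. In middle-aged HSCs this held for Hk3 and Pfkfb4 above (2.83% of all) and for Aldoc and Pgam1 below (7.57%). In MPP3 cells it held for Hk2, Hk3 and Pfkp above (5.23%) and Pdk1 below (5.23%). The median log2 fold change of the members over the limit was 0.09 in young HSCs, 0.03 in middle-aged HSCs and 0.10 in MPP3 cells. Over all genes it was 0.03, -0.03 and 0.00. The members ranged from -0.48 to 0.75 in young HSCs, with 30 of 36 positive (83.3%, and 58.4% of all genes). In middle-aged HSCs they ranged from -0.42 to 0.63, with 23 of 35 positive (65.7%, and 41.5% of all genes). In MPP3 cells they ranged from -0.44 to 0.66, with 23 of 35 positive (65.7%, and 49.6% of all genes). Hk3, chosen for its rise, is the upper end in young HSCs and is counted in the medians and shares of both HSC comparisons.

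In the MPP3 comparison, Pfkp, the platelet-type phosphofructokinase, was at 103, 116, 106 and 106 CPM in Y-WT and at 210.3, 149.5, 159 and 131 in Y-TTPΔARE cells, with a log2 fold change of 0.58 ± 0.16 (adjusted p = 0.13, edgeR). Hk2 there had 0.66 ± 0.17 (adjusted p = 0.10). The 2 genes were the members called without the Y-TTPΔARE library 4 (Hk2 0.75, adjusted p = 0.045, and Pfkp 0.69, adjusted p = 0.023), a fit that called 2.7% of 12842 genes. The 2 genes were named after their values were seen. Monocyte and macrophage markers summed to 1089 to 1622 CPM in Y-TTPΔARE MPP3 cells against 513 to 641 in Y-WT, with none of the 10 at 0 in either group, and their part in the result was not tested. In bulk samples fewer cells of a type and less RNA per cell cannot be told apart.

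**Figure D4:**
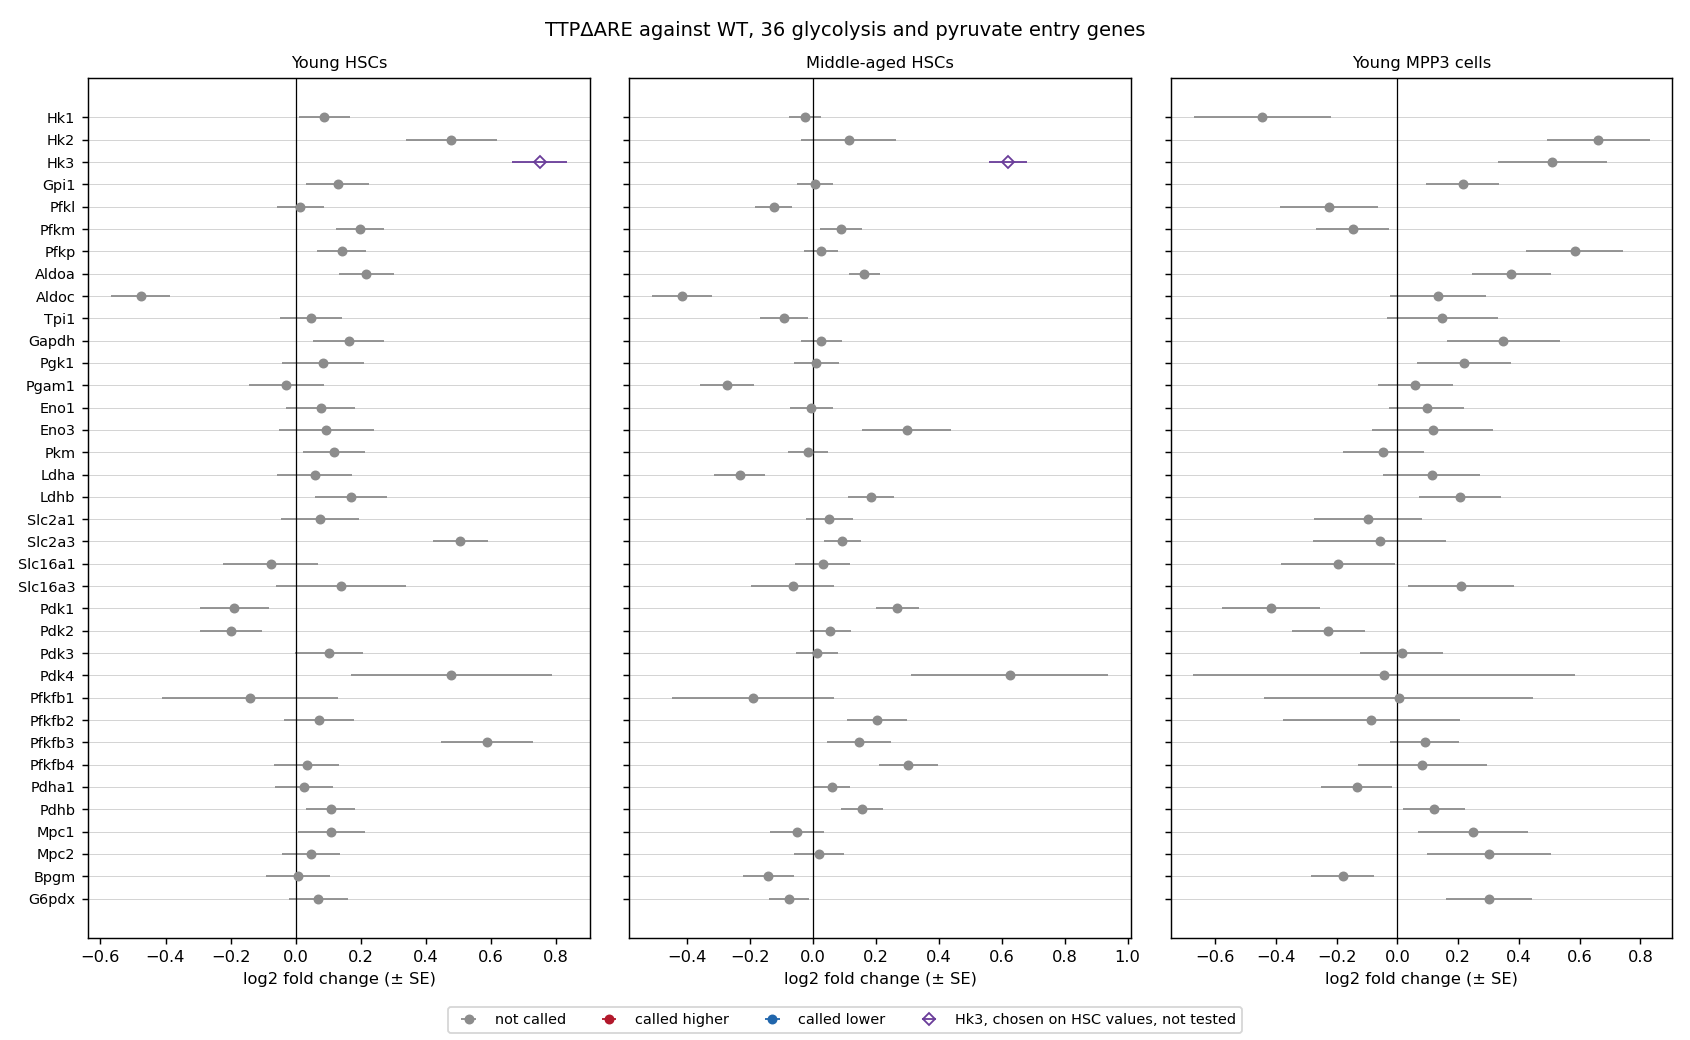
Log2 fold change (x axis, with SE) of TTPΔARE against WT for each of the 36 genes in young and middle-aged HSCs and in MPP3 cells, with called genes in red or blue and Hk3 in the HSC panels as an open diamond, untested. Hk3 lies at 0.75 and 0.62 in those panels, by which it was chosen, and no gene is called in MPP3 cells.

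Comparing MPP3 cells with HSCs asks how the pathway differs between stem and progenitor cells. In young WT, 14 of 36 members passed, 8 higher in MPP3 cells (20.1% of the 13467 tested genes were higher) and 6 lower (11.5%). The 8 were Hk3, whose HSC values chose it and which is counted without support from the test, and Pfkl, Gapdh, Pgk1, Pgam1, Pkm, Pdk1 and Mpc1, of which Gapdh, Pgk1, Pgam1 and Pkm are enzymes of the lower chain. The 6 were Aldoc, Ldhb, Slc2a1, Pdk2, Pdk4 and Pfkfb2. With library totals in place of TMM factors the split was 2 higher, Hk3 and Pgam1, and 10 lower. Of 13499 genes 1456 were then higher and 2832 lower. The median of all genes moved from 0.11 to -0.09, so that most of the higher calls were relative to the TMM scale.

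Pdk4, a kinase that restrains pyruvate dehydrogenase, had the largest difference. It was at 9.78, 2.93, 5.77 and 6.29 CPM in Y-WT HSCs and at 1.61, 0.757, 0.985 and 0.372 in Y-WT MPP3 cells. The groups did not overlap, and the log2 fold change was -2.78 ± 0.50 (adjusted p = 0.00080, edgeR).

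Hk3 had a log2 fold change of 1.80 ± 0.14, given with no test since its Y-WT HSC values belong to its choice. Pgam1, the phosphoglycerate mutase, was at 77.9, 62.6, 46.5 and 54.9 CPM in HSCs and at 103, 133, 109 and 104 in MPP3 cells (0.83 ± 0.15, adjusted p = 0.00072, edgeR). Gapdh was at 829, 668, 498 and 601 CPM in HSCs and at 1039.9, 1289, 864 and 999 in MPP3 cells (0.63 ± 0.20, adjusted p = 0.034), and lost its call with library totals (0.43, adjusted p = 0.055, edgeR). No library of MPP3 cells was below an HSC library for either enzyme.

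Mpc1, a subunit of the mitochondrial pyruvate carrier, was at 38.0, 30.8, 25.4 and 26.0 CPM in Y-WT HSCs and at 45.2, 56.2, 42.2 and 42.8 in Y-WT MPP3 cells (0.57 ± 0.19, adjusted p = 0.042, edgeR), and also lost its call with library totals. Among the genes that were lower, Aldoc was at 38.5 to 55.2 CPM in Y-WT HSCs and at 26.2, 30.7, 23.7 and 20.3 in Y-WT MPP3 cells (-0.87 ± 0.15, adjusted p = 0.00068, edgeR). Neither gene overlapped between the cell types.

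Pfkfb2, another maker of the phosphofructokinase activator, was at 20.2, 14.8, 18.8 and 19.8 CPM in HSCs and at 11.9, 7.45, 13.5 and 10.7 in MPP3 cells (-0.81 ± 0.22, adjusted p = 0.015, edgeR). It shares 1262 exonic bases with Gm29427 on its own strand, so its counts are uncertain. Ldhb, the lactate dehydrogenase that favours pyruvate, was at 214, 145, 121 and 157 CPM in HSCs and at 118, 106, 82.9 and 108 in MPP3 cells (-0.68 ± 0.16, adjusted p = 0.0071, edgeR). In both genes every MPP3 library was below every HSC library.

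In TTPΔARE animals 14 of 36 members passed again, 5 higher in MPP3 cells (13.7% of genes) and 9 lower (14.8%). The 5 were Gapdh, Pgk1, Pgam1, Mpc1 and Hk3, which had 1.45 ± 0.14 and is again a description, since its Y-TTPΔARE HSC values belong to its choice. The 9 were Pfkm, Ldhb, Slc2a1, Slc2a3, Pdk2, Pdk4, Pfkfb2, Pfkfb3 and Bpgm, the last of which makes the regulator of haemoglobin 2,3-bisphosphoglycerate. Slc2a3 was at 235 to 304 CPM in HSCs and at 94.97 to 201 in MPP3 cells (a fold of 0.50, adjusted p = 0.00037), and Pdk4 at 5.64 to 12.2 and 0.323 to 1.65 (-3.36 ± 0.52, adjusted p = 0.00019, edgeR). With the replicate number as a block within genotype, Pfkfb3 lost its call (adjusted p = 0.056, edgeR).

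The test of the difference between genotypes in the MPP3 to HSC change called no member, while it called 0.839% of all genes (edgeR). At an unadjusted p under 0.05 there were 6 members, Hk1, Pfkl, Pfkm, Slc2a3 and Pfkfb3 lower and Aldoc higher, with 17.5% of all genes at that limit, and DESeq2 called none of the members and 2.46% of all genes. Slc2a3 had the largest of these differences, -0.68 ± 0.23 (adjusted p = 0.27).

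Cycling genes differed with cell type, since 17 genes of S phase and mitosis summed to 1414 to 2043 CPM in Y-WT HSCs and 4866 to 5756 in Y-WT MPP3 cells, and their part in these differences was not tested. Without the Y-WT HSC libraries 2, 3 or 4 in turn, the WT comparison gave 8, 8 and 7 members, and without the Y-WT MPP3 library 2 it gave 9. Calls over all genes fell too. They were 2704 higher and 1553 lower with all libraries, 2075 and 1412 without Y-WT HSC 2, and 2057 and 1459 without Y-WT HSC 3.

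**Figure D5:**
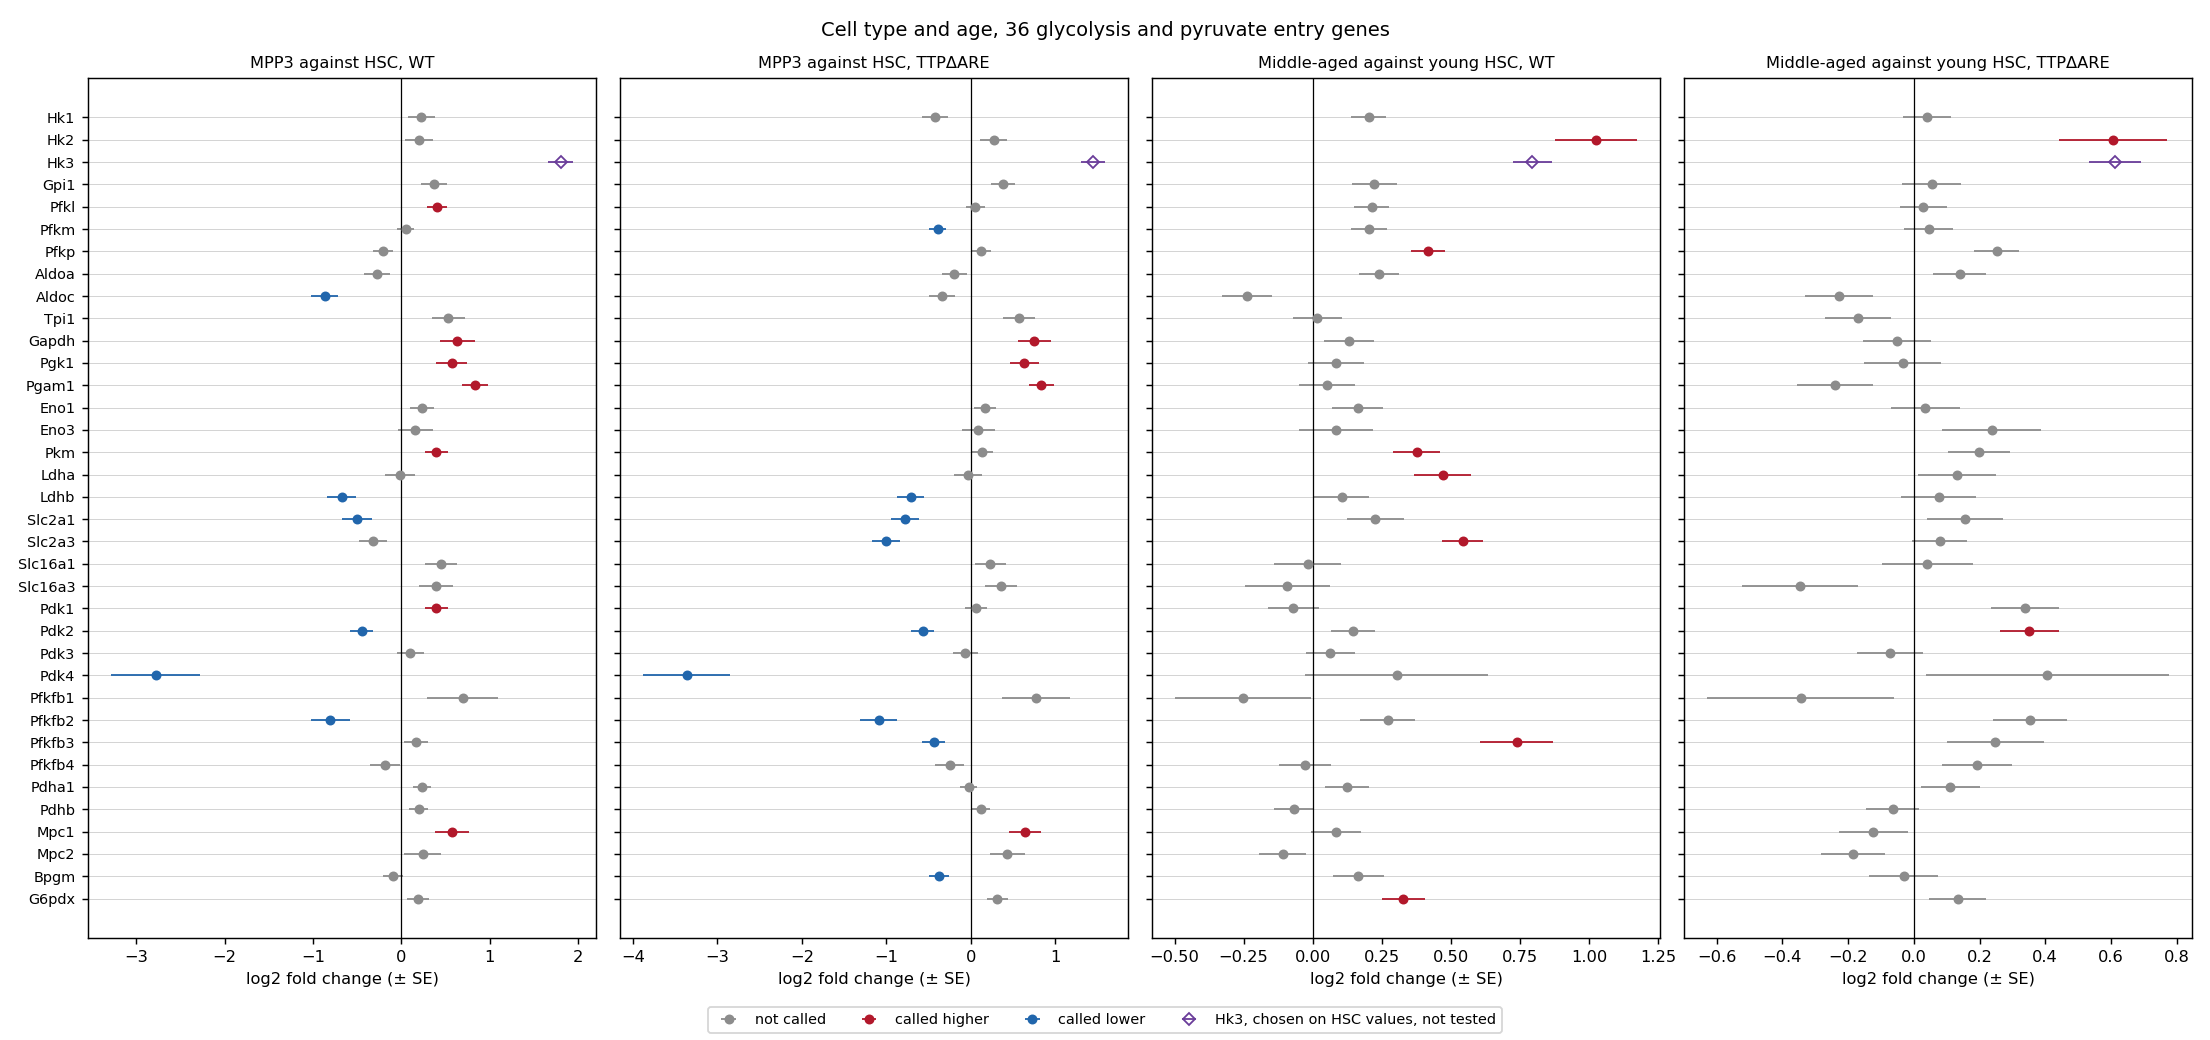
Log2 fold change (x axis, with SE) of the 36 genes for MPP3 cells against HSCs and for middle-aged against young HSCs, each in WT and TTPΔARE, with called genes in red or blue and Hk3 as an open diamond, untested. Pdk4 lies furthest to the left in both MPP3 panels, at -2.78 and -3.36, and Hk2 and Hk3 furthest to the right in both age panels.

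The age comparison asks which members differ between middle-aged and young HSCs. In WT 8 of 36 members met the limits, Hk3 among them as a description without support from the test. All 8 were higher in middle-aged HSCs (17.7% of 13667 genes were higher) and none lower (6.32%). They were Hk2, Pfkp, Pkm, Ldha, Slc2a3, Pfkfb3, G6pdx, the entry enzyme of the pentose phosphate pathway, and Hk3. Hk2 rose from 21.4 to 28.0 CPM in Y-WT to 43.3 to 61.6 in M-WT (log2 fold change 1.03 ± 0.15, adjusted p = 0.00019, edgeR), and Pfkfb3 from 22.5 to 28.7 CPM to 39.9 to 52.9 (0.74 ± 0.13, adjusted p = 0.0011). Hk3 had 0.79 ± 0.07, with no test since both groups belong to its choice.

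With library totals 7 were higher and Aldoc was lower. Without the Y-WT HSC library 1, the 1 with few receptor reads, 20 members passed. There were 13 without M-WT HSC 1 and 14 without Y-TTPΔARE HSC 2 or 4, and without either of the latter the median of all genes in this comparison was 0.16. The number of all genes called in these fits is not given here, and the cause was not tested. With all libraries the median log2 fold change of the 36 members was 0.15 against 0.09 over all genes, and the count of genes detected and the receptor genes differ between the sets of libraries as given above. Marker lists also moved with age. HSC markers summed to 2389 to 3478 CPM in Y-WT and 3948 to 4534 in M-WT HSCs, with 10 of 13 called higher in WT and 8 of 13 in TTPΔARE. Of the 17 genes of S phase and mitosis 13 were lower in WT and all 17 in TTPΔARE, and 7 of 9 T and NK cell markers were lower in each. Their part in the differences was not tested.

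In TTPΔARE HSCs 3 members met the limits, Hk2, Pdk2 and, as a description without support from the test, Hk3. All were higher with age (6.41% of genes were higher) and none lower (5.69%). Hk2 was at 27.3 to 43.9 CPM in Y-TTPΔARE and 46.2 to 67.1 in M-TTPΔARE HSCs (0.61 ± 0.16, adjusted p = 0.034), by edgeR. Hk3 had 0.61 ± 0.08, with no test for the same reason. Pdk2 had 0.35 ± 0.09 (adjusted p = 0.026, edgeR). The count moved when single libraries were left out. It was 1 without any of M-WT HSC 1 to 4, M-TTPΔARE HSC 2 or Y-TTPΔARE HSC 4, 6 without Y-TTPΔARE HSC 1 and 5 without Y-WT HSC 4.

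The test of the difference in the age change between genotypes called none of the 36, with 0.0439% of all genes called (edgeR). There were 4 members at an unadjusted p under 0.05, Ldha, Slc2a3 and Pfkfb3 lower and Pdk1 higher, with 15.1% of all genes at that limit. DESeq2 called Slc2a3 and Pdk1, and 1.15% of all genes. Slc2a3 had -0.46 ± 0.11 (adjusted p = 0.22, edgeR), being at 261 to 305 CPM in M-WT and 265 to 319.8 in M-TTPΔARE HSCs.

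The neighbouring pathways, by lists written for this work, changed with genotype in few genes. In middle-aged HSCs Fbp1, an enzyme of gluconeogenesis, was higher (log2 fold change 0.98 ± 0.13, adjusted p = 0.0042, edgeR), 1 of 3 genes of that list over the limit. Of 17 other targets of HIF-1, Vegfa was higher (0.55 ± 0.12, adjusted p = 0.046) and Ak4 lower (-0.62 ± 0.10, adjusted p = 0.011, edgeR). Of 15 regulators, Epas1, the gene of HIF-2α, was lower (-0.95 ± 0.20, adjusted p = 0.044, edgeR). In MPP3 cells Taldo1, an enzyme of the pentose phosphate pathway, was the 1 of 7 genes called higher (0.72 ± 0.15, adjusted p = 0.047, edgeR), and in young HSCs no listed gene was called (edgeR). These counts stand beside calls for 2.22%, 2.54% and 0.0435% of all genes in the same comparisons.

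Between MPP3 cells and HSCs in WT, where 20.1% of all genes were higher and 11.5% lower, 2 of 7 pentose phosphate genes were higher and none lower, led by Taldo1 (0.71 ± 0.16) and Tkt (0.62 ± 0.11). Of 11 genes around pyruvate dehydrogenase 5 were higher, with Me2 (0.79 ± 0.12), and 1 was lower, Me1 (-1.80 ± 0.22), which are malic enzymes. Of 15 regulators 2 were higher and 4 were lower, with Epas1 (-4.90 ± 0.68) and Txnip (-0.91 ± 0.20), an inhibitor of glucose uptake. Of 10 glycogen genes Pygm, the muscle-type glycogen phosphorylase, was lower (-2.52 ± 0.33) and 1 was higher. Of the 17 other HIF-1 targets 6 were higher, with Egln3 (0.87 ± 0.29), and 1 was lower, Bhlhe40 (-1.53 ± 0.31). The median of the 17 was 0.20 against 0.11 over all genes. Egln3 is on the list of regulators too and is counted as higher in both lists, here and in TTPΔARE. Of 13 remaining isozymes over the limit 1 was higher and 3 were lower, among them Ldhd at -0.86. Of 3 genes of gluconeogenesis 2 were higher, Fbp1 (adjusted p = 0.0042, edgeR) and 1 other, and none was lower. In TTPΔARE, where 13.7% of all genes were higher and 14.8% lower, the pentose phosphate list had 3 genes higher and none lower, that of pyruvate dehydrogenase 1 and 1, gluconeogenesis 2 and 0, glycogen 0 and 2, the regulators 2 and 5, the other HIF-1 targets 4 and 1 and the remaining isozymes 2 and 4.

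With age in WT HSCs, where 17.7% of all genes were higher and 6.32% lower, 3 of the 13 remaining isozymes were higher and 2 lower, and 1 pentose phosphate gene, 3 genes around pyruvate dehydrogenase, 2 glycogen genes, 2 regulators and 2 other HIF-1 targets were higher, with 1 regulator lower. In TTPΔARE, where 6.41% were higher and 5.69% lower, 1 remaining isozyme, 1 glycogen gene and 1 HIF-1 target were higher, and 1 remaining isozyme, 2 regulators and 1 HIF-1 target were lower. The glycogen gene Pygm was higher in middle-aged HSCs (0.82 ± 0.16, adjusted p = 0.0019, edgeR), as it was in TTPΔARE (0.96 ± 0.17, adjusted p = 0.0026). Bhlhe40 was higher in WT (0.67 ± 0.19, adjusted p = 0.019), and in TTPΔARE it had -0.09 ± 0.21 (adjusted p = 0.94, edgeR). Me1 was higher in WT (0.61 ± 0.16, adjusted p = 0.014), and Myc, a regulator of growth that also acts on glycolysis genes, was lower in TTPΔARE (-0.50 ± 0.14, adjusted p = 0.048, edgeR). No listed gene passed the tests of either difference between genotypes (edgeR).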

How the data were processed

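Bulk mRNA-seq of 24 libraries in 6 groups was used. The authors deposited raw counts of reads per gene symbol. The labels and the study's methods name cutadapt, STAR and featureCounts, the mm10 genome and GENCODE M22. The labels and the methods name different library kits, and the study's own MPP3 comparison used fewer TTPΔARE libraries than all of those analysed here. Strand settings are not given in the sources used here, so overlapping genes cannot be told apart. Members, lists and comparisons were chosen with earlier results of these data known, and the rule named Hk3 by its difference between genotypes.

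The analysis ran in R 4.3.3. Differences in the counts were tested with edgeR 4.0.16, TMM factors and filterByExpr (minimum count 10, minimum total 15) by the quasi-likelihood test, in 5 fits over all genes. Library sizes limit the precision, at 24261371 to 39934554 counts. The SE is the log2 fold change divided by the square root of F. CPM are scaled over all 24 libraries. Tests across genes used Benjamini-Hochberg adjustment, at 0.05 with a fold over 1.2 and a logCPM over 1.5. Hk3 in contrasts with HSC libraries has no p in the text. Per-library values are given for Hk3, members called between genotypes, and the 8 called members with the largest change between MPP3 cells and HSCs in WT, and at most 2 called genes per other list are named. Hk1, Hk2, Pfkp, Slc2a3, Pfkfb3 and Aldoc in the genotype comparisons were added after their values were seen. The tests were tested on simulated data.

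The labels share replicate numbers between groups. The deviations of same-numbered HSC and MPP3 libraries correlated at 0.276, 0.236, 0.179 and 0.184 in Y-TTPΔARE and at 0.096 to 0.225 in Y-WT. Those of the 2 genotypes correlated at -0.197 to 0.168. The correlation was highest with the own number for libraries 1, 2 and 4 of Y-TTPΔARE HSCs and libraries 2 and 4 of Y-WT HSCs, and not for the rest of these. Alternatives were DESeq2 1.42.0, the likelihood ratio test, RLE factors, library totals, no filter, no fold or logCPM limit, a replicate block and each library left out.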

Additional observations from a re-analysis of the deposited data

Results flagged for a closer look

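Within single groups of 4 or 5 libraries, 13 of 180 member and group pairs held a library far from the others (Dixon's test, which flags about 1 in 20 groups by chance). Library 1 of Y-WT HSCs was the highest for Slc2a3 (209.8 CPM, the others 164 to 169.8), Pdha1 (178 CPM, the others 133 to 139.9) and Pdhb (155 CPM, the others 112 to 119). Library 1 of Y-TTPΔARE HSCs was the highest for Pfkl (258 CPM against 230.1 to 233), Pgam1 (73.9 CPM against 59.3 to 60.4) and Pdha1 (194 CPM against 145 to 153). Library 4 of Y-TTPΔARE MPP3 cells was the highest for Pdk3 (161 CPM against 116 to 120.5) and for Mpc2, a subunit of the pyruvate carrier (149 CPM against 70.2 to 81.0). Library 1 of that group was the highest for Pkm (1143 CPM against 949.6 to 979). In Y-WT MPP3 cells library 2 was the highest for Gpi1 (485.5 CPM against 393 to 409) and library 1 for Bpgm (33.9 CPM against 29.9 to 30.3). In M-WT HSCs library 3 was the highest for Pgam1 (81.8 CPM against 63.7 to 68.0) and library 5 the lowest for Pfkfb1 (1.72 CPM against 2.98 to 3.35). None of these was tested for a cause.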

How the results depend on the processing

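No called result was reversed in the comparisons of genotypes within a group of cells or of MPP3 cells with HSCs. The direction of single genes was not followed in the age comparisons or in the tests of a difference between genotypes. For TTPΔARE against WT in HSCs Hk3 is left out of what follows, since it was chosen on these values. In the cell type and age comparisons the counts include it as a description. In young HSCs no other member was called as reported, with library totals or with single libraries left out. DESeq2 called Slc2a3, Pfkfb3 and Aldoc, and the likelihood ratio test and the fit with no filter on low counts also called others. In middle-aged HSCs no other member was called as reported. DESeq2 called Pdk1, Pfkfb4, Aldoc and Pgam1, and library totals and no filter each called another. Leaving out M-WT HSC 1 added Pdk1 and M-WT HSC 2 added Aldoc. In MPP3 cells the number of members called was 0, with 2 by DESeq2, 1 by the likelihood ratio test and 0 to 2 with libraries left out. For MPP3 cells against HSCs it was 14 in WT, with 7 to 18 when libraries were left out, and 14 in TTPΔARE, with 11 to 16. With age in WT it was 8, with 15 without the filter, 13 without the limits on fold and level and 8 to 20 with libraries left out (20 without Y-WT HSC 1, 13 without M-WT HSC 1, and 14 without Y-TTPΔARE HSC 2 or 4). With age in TTPΔARE it was 3, with 5 by DESeq2, 6 with library totals, 5 without the filter and 1 to 6 with libraries left out. For the difference of the age change it was 0, with 2 by DESeq2 and 0 to 1 with libraries left out (Slc2a3 without Y-WT HSC 1). Calls over all genes moved between settings too. In young HSCs they were 3 higher and 3 lower as reported, 50 and 96 by the likelihood ratio test, and 40 and 33 with no filter. The cause of these shifts was not tested.

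With a replicate block no member other than Hk3 was called for genotype in young or middle-aged HSCs, and none in MPP3 cells. The numbers of called members were 14 and 14 for cell type in WT and TTPΔARE, 9 and 2 for age in WT and TTPΔARE, and 0 for both differences. The block within genotype, added after the data were seen, gave 16 in WT, 13 in TTPΔARE and 0 for their difference. Library depth limits the lowest members, such as Pdk4 in MPP3 cells.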
